A study of Rattus norvegicus with 14 samples.

Results

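The windows described here were 2207 windows of 1 kb on rat chromosomes 1 to 20 in which DNA methylation was at least 75% in each of 14 soleus muscle samples. They were chosen by their own levels: a value in every sample, and a lowest value of 75% or more. They made up 1.67% of the 131799 autosomal windows with 14 values, and the whole table held 194367 windows. They are called high windows below. The levels that chose them are given as a description, and tests were kept to the difference between the lines. The rule did not use the line labels, but it used the values tested and removes windows in which either line falls low.

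Methylation had been read by RRBS (reduced representation bisulfite sequencing) in left soleus muscle, which holds posture and consists mainly of slow fibres. All samples came from females aged 23 to 24 months of generation 44 of rat lines bred from the N:NIH stock for high (HCR, n = 6) or low (LCR, n = 8) running capacity, all on standard chow and none treated. RRBS cuts DNA with MspI and reads short fragments after bisulfite has converted unmethylated cytosines, so CpG-rich sequence is over-represented. Whether every sample is from its own rat is not stated, so p-values speak only of the spread between the samples in hand. Each level is an average over all cells of the piece of muscle, and the read depth behind it is unknown. Windows without a value numbered 4806 to 17161 in HCR samples and 2705 to 23521 in LCR samples, most in LCR replicate 7. The tissue could not be checked by marker genes, because the windows carry positions and no gene names.

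In mammalian DNA most methyl groups sit on the cytosine of CpG pairs. DNMT3A and DNMT3B place them, and DNMT1 with UHRF1 copies them to the new strand after replication. Outside CpG islands, in gene bodies, repeats and intergenic sequence, most CpGs are methylated in most cells, whereas CpG islands at promoters are mostly free of methylation. RRBS favours CpG-rich fragments. How far this bears on the share of high windows here was not tested.

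High windows had a median level of 83.3% over the 14 samples, with quartiles of 81.1 and 85.6%. The median over all autosomal windows was 35.05%. Most lay in the low 80s: 1266 (57.4%) had a mean of 80 to under 85%, 23.8% of 85 to under 90%, and 284 (12.9%) of less than 80%. Means of 90 to under 95% were found in 113 windows and means of 95% or more in 18. Full methylation in every sample was not seen: 116 windows reached 100% in at least 1 sample, and 0 did so in all 14. The threshold cut through a dense part of the distribution. In 803 high windows (36.4%) the lowest value was under 77%, and 926 windows with a lowest value of 73 to under 75% fell just outside. With a minimum of 80% in place of 75% there were 690 windows, with 85% there were 146, and with 90% there were 14.

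In 39 windows the lowest value was exactly 75%, and the first of these in genome order show what lies just inside the threshold. At 7613001 to 7614000 on chromosome 1 the mean was 83.1% ± 3.69 (SD, n = 14). At 14511001 to 14512000 on the same chromosome it was 81.8% ± 5.16, and at 82533001 to 82534000 it was 84.7% ± 5.41. Those just outside had lower means. At 40324001 to 40325000 on chromosome 17 the lowest value was 74.99% and the mean 77.6% ± 1.79 (SD, n = 14). On chromosome 3, at 104305001 to 104306000, these were 74.98% and 80.9% ± 2.67. On chromosome 4, at 86645001 to 86646000, they were 74.98% and 81.6% ± 4.61. Each of these 3 missed the threshold by 1 sample.

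The 5 windows whose lowest value was highest were methylated at 95 to 99% on average, and 3 of them lay on chromosome 18. At 76022001 to 76023000 on chromosome 15, HCR samples ran from 95.4% through a median of 96.96% to 100%, and LCR samples from 96.5% through 99.3% to 100%. At 46303001 to 46304000 on chromosome 14, HCR samples ran from 94.3 to 100% with a median of 96.5%, and 7 of the 8 LCR samples were at 100% with the other at 99.2%. The lines overlapped in both windows, and neither passed the test between lines (limma, Benjamini-Hochberg adjusted p = 0.755 and 0.185). On chromosome 18, the window at 28368001 to 28369000 had a mean of 98.7% ± 2.22 (SD, n = 14), the one at 47817001 to 47818000 had 95.5% ± 2.08, and the one at 58675001 to 58676000 had 96.3% ± 2.75. The window measured next to the chromosome 14 one stood at 79.2% in HCR and 75.2% in LCR, and the one next to the first chromosome 18 one at 79.1% and 79.9%.

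Samples lay close together in these windows. The SD over 14 samples had a median of 2.47 percentage points and the range from lowest to highest sample a median of 8.55 points, where the rule itself allows no more than 25. In 683 windows (30.9%) the SD was under 2 points, and in 81 (3.67%) the range exceeded 20 points. The 5182 windows with a mean of 75% or more but a lowest value under 75% had a median SD of 4.21 points, and all autosomal windows 4.83. The rule removes windows in which any sample falls low, so the smaller SD follows in part from the choice. On a log2 logit scale the median SD was 0.24 in high windows and 0.34 in the windows that missed the threshold. It was 0.21 in the 2661 windows with all 14 values between 40 and 60%. This scale stretches near 100%. From high windows with means under 80% to those at 95% or more, its median SD rose from 0.161 to 1.16. In points the median SD of the same bands was 1.92 and 3.08, so sets of unlike level compare only roughly. Spread within a line was alike in both: the median SD was 2.3 points in HCR (n = 6) and 2.34 in LCR (n = 8), and the HCR SD was the larger one in 1111 windows (50.3%).

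The steadiest high window, at 31510001 to 31511000 on chromosome 3, ran from 84.7% through a median of 85.4% to 86.1% in HCR and from 84.7% through 85.6% to 86.9% in LCR, an SD of 0.608 points over the 14. The next were at 16237001 to 16238000 on chromosome 2, with 87.2% ± 0.69 (SD, n = 14), and at 27356001 to 27357000 on chromosome 13, with 90.5% ± 0.759. In all 3 the lines overlapped, and their means differed by 0.259 points or less. The least steady ones reached both ends of the permitted range. At 10046001 to 10047000 on chromosome 9 the SD was 9.48 points: HCR samples stood between 97.4 and 99.4%, whereas LCR samples ran from 78.4 to 99.4% with a median of 79.7%. At 5298001 to 5299000 on chromosome 17 the SD was 8.65 points, with HCR replicate 1 and LCR replicate 2 at 75% and HCR replicate 3 and LCR replicates 6, 7 and 8 at 100%. The third, on chromosome 7, is described with the called windows.

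Windows with a value of 100% were more spread out than the others. The 116 of them had a median SD of 5.66 points and a median range of 20.3, against 2.41 and 8.35 in the remaining 2091. Per sample, values of 100% numbered from 5 in LCR replicates 1, 3 and 4, the samples with the fewest missing windows, to 37 in LCR replicate 7, which had the most (23521). LCR replicate 7 was also the lowest sample in 240 high windows and the highest in 261, and its mean distance from the window's median was the largest, 2.59 points, against 1.64 in LCR replicate 1. The part of read depth in this was not tested.

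The mean over all 2207 windows was higher in most HCR samples than in most LCR samples by 0.408 points, but lower by 0.71 points once each library was centred. HCR samples ran from 83.7% in replicate 2 through a median of 83.9% to 84.2% in replicate 6, and LCR samples from 83.2% in replicate 3 through 83.5% to 83.8% in replicate 7. The lines overlapped: 4 HCR samples lay above every LCR sample, and 3 LCR samples lay above HCR replicate 2. HCR averaged 83.9% ± 0.207 (SD, n = 6), LCR 83.5% ± 0.19 (SD, n = 8), and their difference had an SE of 0.108 points. Over all autosomal windows the levels were 35.6% ± 0.984 and 34.5% ± 1.04, a difference of 1.13 points, so after each library was centred on its mean over all windows the difference in high windows turned to -0.71 points. No test was made on this mean, since the windows were chosen by their levels.

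The order of the samples in high windows was not their order over the genome. Sample means spanned 1.03 points in high windows and 3.79 points over all autosomal windows. HCR replicate 3 had the lowest genome-wide mean of its line (33.8%) and the third highest in high windows (83.98%). LCR replicate 7 had the lowest genome-wide mean of all (32.96%) and the highest of its line in high windows (83.8%). By band of level, the line difference was 0.351 points below 80%, 0.468 points at 80 to under 85%, 0.376 points at 85 to under 90% and 0.043 points at 90 to under 95%. All 4 turn negative after centring, as the genome-wide difference exceeds each of them.

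**Figure D1:**
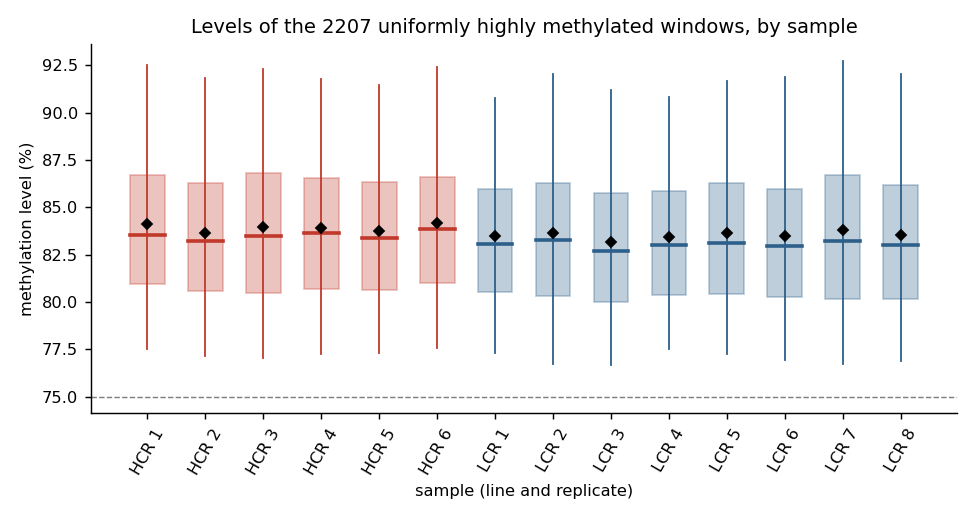
Methylation level (y axis, %) of the 2207 high windows in each of 6 HCR (red) and 8 LCR (blue) samples (x axis). Boxes span the quartiles, thick lines are medians, diamonds means, thin lines the 5th to 95th percentiles, and the dashed line is the 75% threshold; the means lie between 83.2 and 84.2% and the lines overlap.

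Choosing the windows in some samples and reading them in others showed how far the high level carried over. The windows at 75% or more in all 6 HCR samples numbered 3630. In the LCR samples, which had no part in that choice, they averaged 81.4% ± 0.223 (SD, n = 8), and 3441 (94.8%) had an LCR mean of 75% or more. The lowest LCR mean among them was 54.5%, and 10 were under 65%. The windows at 75% or more in all 8 LCR samples numbered 2843. In HCR they averaged 82.7% ± 0.183 (SD, n = 6), with 2782 (97.9%) at a mean of 75% or more, a lowest mean of 59.6% and 3 windows under 65%. In each direction the line that was read lay below the line that chose, with a difference (read minus chosen) of -1.48 points for LCR and -0.254 points for HCR, so the sign of the line difference depends here on which line chooses. Levels under 65% in the line that was read were rare.

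The same held sample by sample. Of the windows at 75% or more in the other 13 samples, between 1.3% (29 windows, LCR replicate 1) and 7.19% (171, LCR replicate 7) were under 75% in the sample left out. The left-out sample fell below 50% in 4 such windows in HCR replicate 3, in 2 in LCR replicate 7 and in 1 each in HCR replicate 5, LCR replicate 2 and LCR replicate 4, and in 0 in the other samples. The lowest single values were 19.2% in LCR replicate 7, 25% in HCR replicate 5 and 33.3% in HCR replicate 3.

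Between the lines, 10 of the 2207 high windows (0.453%) differed at an adjusted p under 0.05, 5 higher and 5 lower in HCR. The test was limma on log2 logit levels with Benjamini-Hochberg adjustment over all 135802 windows with 14 values. Over all of these 0.569% were called, 0.405% higher and 0.164% lower in HCR. The share of high windows called was thus near the background, and is no result about them. The rule uses the values of both lines, so it also shapes the shares given here and the balance of directions. Of the 3630 windows chosen on HCR alone, 47 (1.29%) were called, 42 higher and 5 lower in HCR. Of the 2843 chosen on LCR alone, 22 (0.774%) were called, 5 higher and 17 lower in HCR. Of the windows with a mean of 75% or more that missed the threshold, 29 of 5182 (0.56%) were called, 20 higher and 9 lower in HCR. The lines did not overlap in 13 high windows (0.589%), 7 higher and 6 lower in HCR. Over all windows the share was 0.71%, with 0.558% higher and 0.152% lower. Of the 13, 6 were among the called ones. An unadjusted p under 0.05 was found in 154 high windows (6.98%), against 10.9% of all. The count of called high windows was 7 after each library was centred, 2 higher and 5 lower, and the same after quantile normalization. Over all windows 0.492% and 0.497% were called in these settings. Leaving out samples one at a time lowered it to 7 (LCR replicate 3, 4 or 6), 6 (HCR replicate 1, 3, 5 or 6, LCR replicate 5), 5 (HCR replicate 2 or 4, LCR replicate 1 or 7) or 4 (LCR replicate 2 or 8), while all calls fell from 773 to between 495 and 669.

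The size of the line difference was small in nearly all high windows. It was under 2 points in 1714 (77.7%), against 53.8% of all autosomal windows, and 5 points or more in 46 (2.08%), against 17.9%. The rule caps the difference at 25 points, so these shares are a description. HCR had the higher mean in 1331 windows (60.3%), against 64.8% of all autosomal windows, and after each library was centred on its autosomal mean in 681 (30.9%), against 41.2% of all autosomal windows.

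Of the called windows, 4 stayed called whichever sample was left out, and in all 4 the lines did not overlap. At 146001 to 147000 on chromosome 18, HCR samples ran from 88.1% through a median of 90.3% to 91.7% and LCR samples from 80.4% through 82.4% to 84.2%. Every HCR sample lay above every LCR sample, by 7.81 points on average (log2 logit difference 0.92, SE 0.11, limma adjusted p = 0.00126). The order was the opposite on chromosome 8 at 18305001 to 18306000. HCR samples ran from 75.3% through 78.3% to 80.3% and LCR samples from 83.6% through 85.3% to 87.3%, a difference of -7.44 points (limma adjusted p = 0.0034).

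The other two were also lower in HCR. At 17267001 to 17268000 on chromosome 7, HCR samples stood between 75.03 and 77.8% (median 76.2%), close to the threshold, and LCR samples between 85.4 and 94.1% (median 88.2%). The difference of -12.4 points was the largest decrease among high windows (limma adjusted p = 0.00495). The window on chromosome 2 was 213326001 to 213327000, where HCR samples ran from 75.7% through 77.4% to 85.2% and LCR samples from 85.7% through 89.4% to 90.1%. Of the HCR samples, replicates 1 (85.2%) and 6 (83.9%) stood close to the LCR range and the other four between 75.7 and 77.9%, and the mean difference was -9.71 points (limma adjusted p = 0.00563).

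The remaining 6 calls stood near the limit, with limma adjusted p of 0.0273 to 0.0479. Each was lost in 9 to 13 of the 14 fits that left out 1 sample. At 184676001 to 184677000 on chromosome 2, HCR samples ran from 85.8 to 87.9% (median 86.6%) and LCR samples from 77.3 to 85.8% (median 79.3%), overlapping only through LCR replicate 6. The difference was 6.54 points (limma adjusted p = 0.0273), and the call was kept without HCR replicate 3 or 5 or LCR replicate 5, 6 or 7 and lost without any other sample (adjusted p up to 0.0712). At 18672001 to 18673000 on chromosome 7 the difference was the largest increase, 13.7 points. There, HCR replicates 1, 2 and 6 were at 100%, HCR replicates 4 and 5 at 95.2 to 96.3%, and HCR replicate 3 at 84.3%, within the LCR range of 76.96 to 87.1%. Its limma adjusted p was 0.0342, and the call was kept only without HCR replicate 3 or 5 (up to 0.0815 otherwise).

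At 2858001 to 2859000 on chromosome 10, HCR samples ran from 76.01 to 78.6% and LCR samples from 80.4 to 85.9% without overlap (-6.08 points, limma adjusted p = 0.0385). That call was kept without LCR replicate 1, 3 or 6 and lost without any other sample (up to 0.0873). At 105235001 to 105236000 on chromosome 7, HCR ran from 83.7 to 92.7% and LCR from 75.1 to 86.2% (9.39 points, limma adjusted p = 0.0417). It was kept without HCR replicate 1 or 2 or LCR replicate 3 or 4 (up to 0.101 otherwise). At 13425001 to 13426000 on chromosome 7, HCR ran from 84.03 to 89.2% and LCR from 79.9 to 83.98%, without overlap but with ends that almost met (5.37 points, limma adjusted p = 0.0446). It was kept only without HCR replicate 1 (up to 0.11). At 8857001 to 8858000 on chromosome 14, LCR ran from 87.4 to 99.4% and HCR from 82.7 to 90.98% (-9.48 points, limma adjusted p = 0.0479), and the call was kept only without LCR replicate 3 or 4 (up to 0.113).

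**Figure D2:**
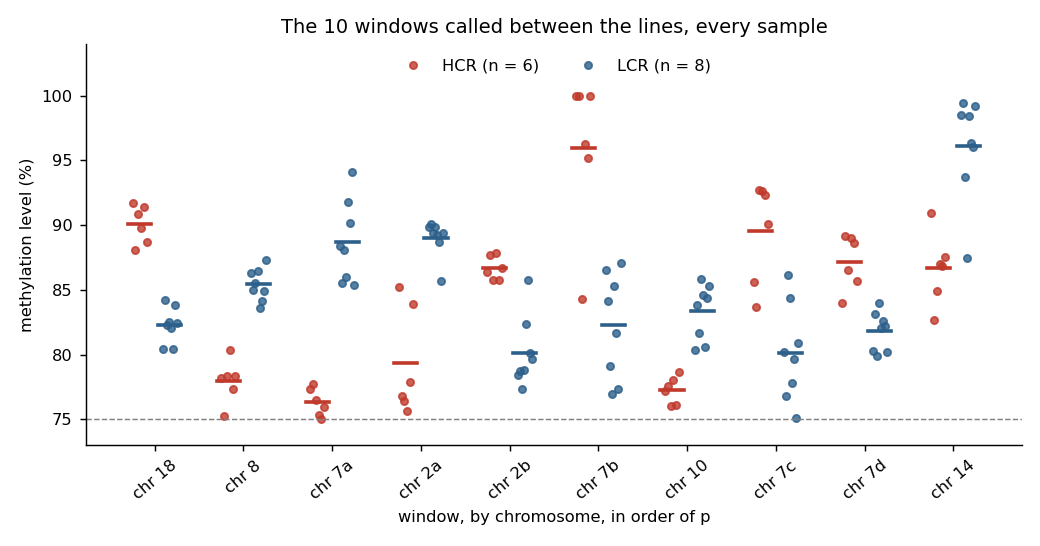
Methylation level (y axis, %) in every HCR (red) and LCR (blue) sample of the 10 called high windows, in order of p from left to right (x axis, chromosome, with letters where a chromosome holds several); bars are line means and the dashed line the 75% threshold. In 6 of the 10 windows the lines do not overlap, and 3 HCR samples of the second chromosome 7 window are at 100%.

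Larger differences were not always called. Among the 5 largest in each direction were 4 windows that did not pass: the one on chromosome 9 described above, with 12.2 points (limma adjusted p = 0.183), and 3 others. On chromosome 14, the window from 10084001 to 10085000 had 92.2% ± 4.42 over the 6 HCR samples (SD) against 81.1% ± 1.58 over the 8 LCR samples, with an adjusted p of 0.134 by limma. On chromosome 13, the window from 46558001 to 46559000 had 88.05% ± 6.29 and 79.1% ± 1.76, with an adjusted p of 0.365 by limma. On chromosome 4, HCR was lower from 30345001 to 30346000, with 79.2% ± 2.72 against 90.3% ± 5.4 and an adjusted p of 0.268 by limma. The lines did not overlap in these last 3 windows, and each held 1 sample at 100%. Of these 4, the chromosome 14 one passed without HCR replicate 4, its sample at 100% (limma adjusted p = 0.00556). It also passed with untransformed levels (0.00654) and with an offset of 0.05 (0.0335). The chromosome 4 one passed with untransformed levels (0.0427) and, without a replicate block, in the 12 samples numbered 1 to 6 (0.0294). The chromosome 9 one passed without LCR replicate 5 (0.048), and the chromosome 13 one in no setting (0.0592 or more).

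From a called window the nearest window with 14 values lay 1 to 55 kb away, within 5 kb for 7 of the 10. None of these 10 neighbours was called (lowest limma adjusted p = 0.184), and 4 of them differed in the same direction as the called window. As only 0.569% of all windows were called, 10 neighbours are too few to show whether calls stand alone. Next to the chromosome 18 window, 145001 to 146000 stood at 86.8% in HCR and at 87.4% in LCR. Next to the first chromosome 7 window, the one at 17266001 to 17267000 had 63.3% and 62.7%. At 184675001 to 184676000 on chromosome 2 the neighbour was nearly unmethylated, with 6.02% in HCR and 3.65% in LCR. Chromosome 7 held 4 of the 10 calls and 146 of the 2207 high windows. Those at 18672001, 105235001 and 13425001 were among the calls near the limit. The share called of all windows of that chromosome is not given here, so no concentration is read from this count.

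High windows were found on all 20 autosomes, at unequal shares. They made up 2.42% of the windows with 14 values on chromosome 4, 2.21% on chromosome 2, 2.2% on chromosome 11 and 2.19% on chromosome 20, but 0.84% on chromosome 10. Chromosomes 8, 12 and 19 also had low shares, of 1.27%, 1.28% and 1.31%. Per megabase the numbers varied otherwise: chromosome 6 had 0.681 high windows per Mb and chromosome 20 had 1.87. Chromosome 10, with few high windows among its windows, had 89.99 windows with 14 values per Mb, and chromosome 4 had 41.7.

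They were commoner where measured windows were sparse. A high window had a median of 8 other measured windows within 50 kb on either side, with quartiles of 4 and 16. For all autosomal windows the median was 13, with quartiles of 7 and 21. The share of high windows fell from 3.39% where there were 0 to 4 others, through 2.1% at 5 to 9 and 1.3% at 10 to 19, to 0.977% at 20 to 39. It was 0.771% where there were 40 or more, from 17 high windows. The median level of all windows fell over the same classes, from 51.3 to 22.6%. The windows with a mean of 75% or more that missed the threshold also had few others near them (median 9), as did those at 40 to 60% in all samples (median 11).

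**Figure D3:**
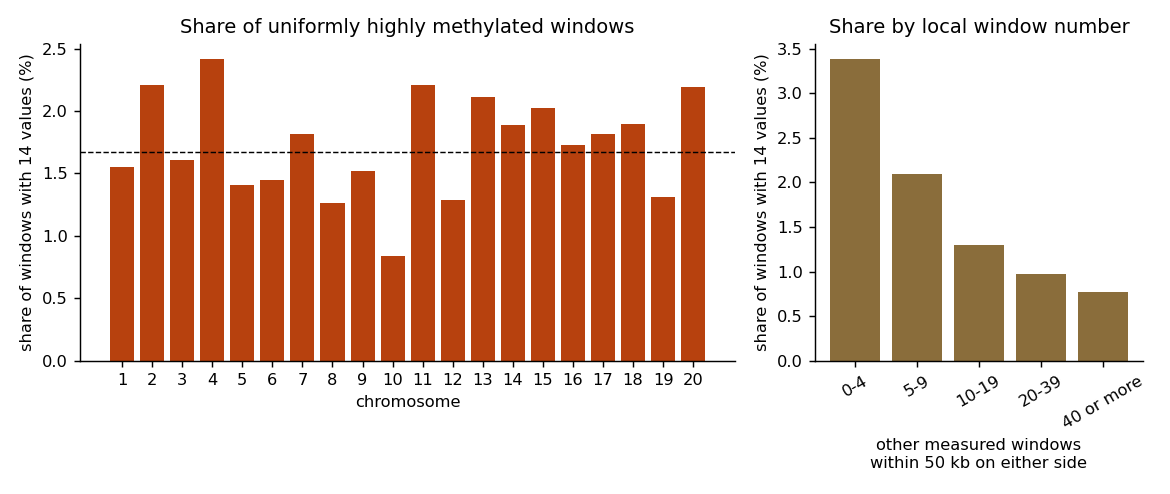
Share (y axes, %) of autosomal windows with 14 values that were high windows, by chromosome (left; dashed line, the 1.67% of all) and by the number of other measured windows within 50 kb on either side (right). Shares run from 0.84% on chromosome 10 to 2.42% on chromosome 4, and from 3.39% in the sparsest class to 0.771% in the densest.

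Within 500 kb of the outermost measured window of a chromosome lay 42 high windows (1.9%), against 0.624% of all autosomal windows and 0.752% of those at 40 to 60% in all samples. The windows with a mean of 75% or more that missed the threshold also exceeded the share of all, with 66 (1.27%). The start of chromosome 18 gave 11 of the 42 high windows, out of 32 windows with 14 values there, and the start of chromosome 3 gave 5 of 20. Without chromosome 18 the shares were 1.36% of high windows and 0.608% of all. The called window at 146001 to 147000 on chromosome 18 lies in this stretch.

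Most high windows were single. Of the 2207, 2070 had no other high window touching them, and 137 (6.21%) lay in runs of windows joined end to start. These were 59 pairs, 3 runs of 3, 1 of 4 and 1 of 6. Among the 2661 windows at 40 to 60% in all samples 0.902% lay in runs, as 12 pairs, and among the 5182 that missed the threshold 5.23%, with 1 run of 3 as the longest. In the 59 pairs the means of both windows differed by a median of 2.79 points. The line difference had the same sign in both windows of 27 pairs, higher in HCR in 16 and lower in 11, and 1 window in a run was called. A high window was far from the next as a rule: the median distance was 271 kb, and 258 (11.7%) had another within 10 kb. They occurred in 1310 of the 2470 megabases that held a window with 14 values, 1 or 2 at a time in 1103 of these, and 5 or more at a time in 23.

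The megabase starting at 44 Mb on chromosome 20 held 24 high windows, more than any other; the next had 11. High windows no more than 10 kb apart were joined into blocks, a rule set after the values were seen, and 2 such blocks held 22 of the 24. No other block of the genome held more than 4 high windows. The first, at 44764001 to 44779000, was measured in all of its 15 windows, and 11 of these were high windows. The other four missed the threshold by 1 sample or more, with lowest values of 72.6 to 74.9%, and the means of all 15 windows ran from 76.3 to 90.4%. It held the run of 6, at 44766001 to 44772000, whose windows had means of 80.2 to 82.7%, and a run of 3 at 44776001 to 44779000 with means of 83.6 to 86.5%. After 62 kb without a measured window came the second block, at 44841001 to 44865000, with 11 high windows among the 14 with all values. It held the run of 4, at 44855001 to 44859000 (means 78.9 to 84.3%), and a run of 3 at 44849001 to 44852000 (80.9 to 85.2%). The only other run of 3 lay on chromosome 7, at 131071001 to 131074000 (78.8 to 83.8%).

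Outside the blocks levels were lower. In the 25 kb before the first block the 9 windows with 14 values had means of 17.4 to 75.6%, and in the 25 kb after the second the 2 windows had 45.5 and 68.3%. High windows of the first block had a mean of 83.97% ± 0.457 over the 6 HCR samples (SD) and of 83.98% ± 1.08 over the 8 LCR samples, and those of the second 83.6% ± 0.77 and 82.8% ± 0.785. The samples of the lines overlapped in both blocks, and 0 windows were called there by limma (lowest adjusted p of a high window 0.425). With 0.569% of all windows called, 0 among so few windows says little about the lines. Outside the blocks chromosome 20 held 80 high windows, 1.73% of its windows with 14 values.

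**Figure D4:**
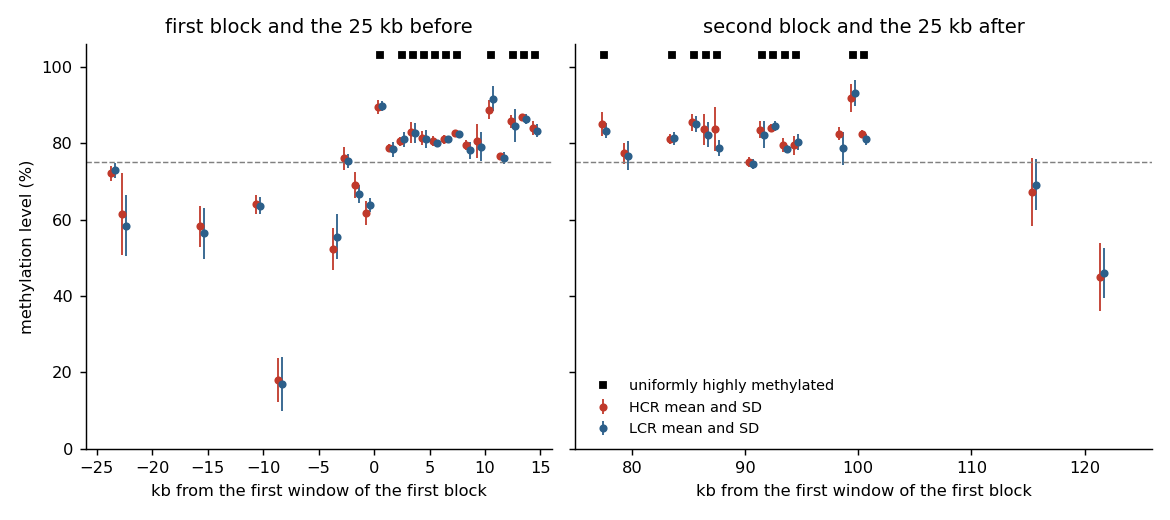
Mean methylation level (y axis, %) with SD in HCR (red, n = 6) and LCR (blue, n = 8) of the windows with 14 values in and around both chromosome 20 blocks, by distance in kb from the first window of the first block (x axis; the 62 kb without windows are left out). Black squares mark the 22 high windows and the dashed line is 75%; levels drop outside the blocks, to 17.4% in 1 window before the first.

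The windows around high windows, whose levels the rule did not use, were methylated too, and this faded within some kilobases. Of the high windows, 988 (44.8%) touched a measured window, 129 of them on both sides, and 50.5% of all autosomal windows did. Counted for each high window, adjoining windows that were not high windows themselves numbered 971, from 965 distinct windows. Their median level was 67.3%, with quartiles of 56.3 and 76.3%, and 42.02% were at 70% or more. For all autosomal windows the median of the adjoining window was 19.3% and 8.85% were at 70% or more. At 2 kb from a high window the median was 58.8%, at 3 kb 54.4%, at 6 to 10 kb 47.1% and at 51 to 100 kb 42.9%. Over the same distances it rose for all autosomal windows, from 30.2% at 2 kb to 38.1% at 51 to 100 kb. Around windows at 40 to 60% in all samples it went from 48.5% at 1 kb to 40.4% at 51 to 100 kb. Around the windows with a mean of 75% or more that missed the threshold the fall was much alike, from 64.3% to 41.0%. Of the windows adjoining those, 34% were at 70% or more. Methylated neighbours and their fading are thus not particular to high windows. Of the distinct windows adjoining high windows 628 had 14 values, and their median SD was 5.46 points. Of these, 2 (0.318%) were called, both lower in HCR, where 0.569% of all windows were.

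**Figure D5:**
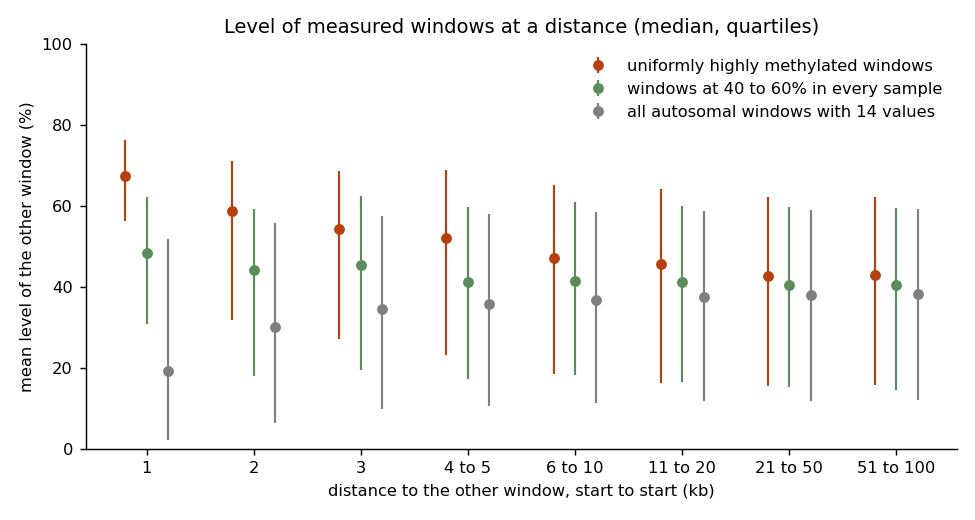
Mean level (y axis, %; points are medians, bars quartiles) of measured windows at a given distance in kb (x axis) from high windows (orange), from windows at 40 to 60% in every sample (green) and from all autosomal windows with 14 values (grey). High windows were not counted as neighbours of the first and second set; around high windows the median falls from 67.3% at 1 kb to 42.9% at 51 to 100 kb.

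Only 23 high windows adjoined a window with a mean under 10%, which was 2.37% of adjoining windows against 40.8% for all autosomal windows. Such neighbours were also few beside the windows that missed the threshold (4.04%) and beside those at 40 to 60% in all samples (8.62%). The step from a high window to such a neighbour ranged from 72.8 to 84.99 points, with a median of 77.1. The following 2 borders have the largest steps and were picked after their values were seen. On chromosome 17 the window at 73250001 to 73251000 had 91.3% ± 1.91 (SD, n = 14) and the next one, at 73251001 to 73252000, 6.35% ± 3.65 (SD, n = 14). On chromosome 10 the window at 33521001 to 33522000 had 85.3% ± 2.21, and the one at 33522001 to 33523000 had 0.799% ± 0.376, with 1.55% as its highest sample.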

How the data were processed

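Per the labels' protocols, RRBS libraries were made from 100 ng of DNA with a Diagenode kit after MspI digestion. The submitters' processing notes name FastQC, Trim Galore 0.6.10, Bismark, Bowtie2 and the build rn7. What the authors deposited is a table of percent methylation by library and window of 1000 bp, with no read counts. How windows were formed, and at which minimum coverage, the sources used here do not say. No window has fewer than 4 values in either line, which was tested on the file. Columns were matched to samples by library name, and 0 sample columns were left unused.

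Levels were divided by 100, transformed to log2((level + 0.01)/(1 - level + 0.01)) and tested between the lines with limma 3.58.1 under R 4.3.3 (line as the only factor, variance trend, 2-sided, Benjamini-Hochberg over 135802 windows). The procedure was tested on simulated data. Other values were computed with Python 3.11.15, numpy 2.4.6 and pandas 2.3.3. Measured windows have a value in some samples; a distance runs from start to start. Named were the called windows, the 5 largest differences each way, the 5 with the highest lowest value, the 3 smallest and 3 largest SDs, the longest runs (all of 3 or more, because the third place was tied) and 3 windows on each side of the threshold. The windows, sets and rules were chosen with earlier results of these data known. Genes and sequences were not used here, since the reference tables are of a different build.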

Additional observations from a re-analysis of the deposited data

Results flagged for a closer look

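Of 68 sets of values, from 29 named windows and 5 measures of each library taken in HCR and LCR apart, 7 held a sample whose distance to the next exceeded the 95% limit for its share of the range. That limit passes about 1 in 20 sets by chance, but these windows were picked on the same values (for their spread, difference or level), so the rate does not apply to them and 7 is a plain count. In the called window at 213326001 to 213327000 on chromosome 2, LCR replicate 7 had 85.7% and the other LCR samples 88.7 to 90.1%. On chromosome 7, in the called window from 18672001 to 18673000, HCR replicate 3 lay at 84.3%, below 95.2 to 100% in the rest of its line. In the called window at 8857001 to 8858000 on chromosome 14, LCR replicate 4 had 87.4% and the other LCR samples 93.7 to 99.4%. On chromosome 14 at 46303001 to 46304000, LCR replicate 4 had 99.2% and the other LCR samples were at the 100% ceiling, a gap of under 1 point. On chromosome 18 at 28368001 to 28369000, HCR replicate 6 had 96.8% against 99.01 to 100% in the other HCR samples, and LCR replicate 2 had 91.8% against 97.8 to 100% in the other LCR samples. On chromosome 1 at 82533001 to 82534000, HCR replicate 1 had 100% and the other HCR samples 82.4 to 86.4%.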

How the results depend on the processing

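The number of high windows was 5015 with a lowest value of 70% or more, 690 with 80% or more, and 3554 when any number of values was allowed and all present ones were at 75% or more. Leaving out each sample gave 2237 to 2501. The count of 10 called windows was 11 with an offset of 0.05, with untransformed levels and without moderation of the variance, and 10 on autosomes alone and with a minimum difference of 2 points. Over all windows 773 were called in the main setting and 884 with that offset. With untransformed levels 1006 were called, without moderation 635, and on autosomes alone 756. The high windows behind the counts of 10 and 11 were not always the same. Without moderation the calls at 18672001 and 105235001 on chromosome 7 and at 8857001 on chromosome 14 were lost. With untransformed levels the one at 13425001 on chromosome 7 was lost. The count of called high windows was 7 with centring, with 668 called of all windows, and 7 with quantile normalization, with 675. It was 4 to 7 when each sample was left out, with 495 to 669 called of all windows. With a replicate block over the 12 samples numbered 1 to 6 it was 0 by limma (lowest adjusted p = 0.0623), with 116 high windows at an unadjusted p under 0.05, and 71 windows of the whole table were called. Over all settings, the adjusted p of the 10 windows ran from 0.000789 (the chromosome 7 window at 17267001 to 17268000) to 0.275 (the one on chromosome 10). The same 12 samples without the block, a setting added after the data were seen, gave 5, and 444 over the table. The labels give same-numbered samples nothing in common. Deviations of same-numbered samples from their line means correlated at -0.0317 to 0.0336 over all windows and at -0.0556 to 0.13 (replicate 6) over high windows of all chromosomes, and over all windows 0 of the 6 HCR samples correlated best with the LCR sample of their own number. The mean difference of 0.408 points was 0.356 to 0.465 when each sample was left out and 0.485, 0.519 and 0.243 with medians and with minimums of 70 and 80%. It was 1.48 points with windows chosen on HCR alone, -0.254 with those chosen on LCR alone, and -0.71 after centring. In the first 2 of these the choice itself favours one line, and in the last the genome-wide difference is subtracted. Among thresholds of 70 and 80%, both added later, the median level of adjoining windows was 64.2 and 70.6%, the share in runs 7.4 and 4.93%, and the median SD 2.85 and 2.06 points. At 75%, leaving out the chromosome 20 blocks lowered the share in runs from 6.21 to 5.45%. Depth is unknown, so no limit from counting was set.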

Other observations

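The X chromosome, outside the rule, had 127 windows at 75% or more in all 14 samples, 3.38% of its 3758 windows with 14 values, where the autosomes had 1.67%. Of the 56712 autosomal windows with a missing value, 1347 (2.38%) had all present values at 75% or more, with a median of 12 values.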
